A study of Mus musculus with 16 samples.

Results

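Repeat-rich distal regions of open chromatin were examined in activated mouse B cells that lack 1 or both alleles of Smarca4, the gene of the chromatin remodeller Brg1. Touching or overlapping peaks of 8 ATAC-seq lists were joined into regions, and a region was kept when it lay on chromosomes 1 to 19 or X, when its centre was outside 1000 bp upstream to 100 bp downstream of every GENCODE transcription start site, and when more than 50% of its GRCm38 (mm10) sequence was soft-masked as repeat. The rule gave 1501 regions of 16566 joined regions in all. Apart from a peak in any of the lists, it used position and sequence only. The 5651 distal regions with less masking served for comparison and are called other distal regions.

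In ATAC-seq, the Tn5 transposase cuts and tags accessible DNA. Splenic B cells of C57BL/6 mice were activated in culture with LPS at 10 µg/mL and IL-4 at 20 ng/mL, for 72 hours according to the sample labels and 96 hours according to the series description, and each library was made from 50000 cells. All 8 libraries came from mice with the CD23-Cre transgene, which is active in mature B cells. In 4 of them 1 floxed Brg1 allele was present (Brg1 fl/+), so that the comparison group also loses an allele, and in 4 both alleles were floxed (Brg1 fl/fl). No ATAC library without the transgene was analysed, and the number of mice behind the libraries is not stated, so that p-values measure the spread between libraries, which may be technical. Peaks lay at the promoters of 4 of 7 B cell marker genes, Ms4a1 and Pax5 in all 8 libraries, Ebf1 in 6 and Cd79a in 1, whereas Cd79b and Cd22 had none. None of the 14 promoters of T cell, myeloid, erythroid or NK cell markers had a peak in any library.

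Repeats make up much of the mouse genome and are mostly packed in closed chromatin. Long interspersed elements (LINE-1) carry their own promoter, which in the mouse is built of tandem monomers, and some of these monomers hold a site for YY1, a zinc finger factor. Satellite repeats form the DNA around centromeres. Brg1 is the ATPase subunit of BAF complexes, which slide and evict nucleosomes. A repeat with many near-identical copies raises a measurement problem of its own, since a read from 1 copy may be placed on another. How multi-mapping reads were handled is not given in the sources used here.

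The sequences fell into families. Members were linked when they shared at least 20% of the 15-base words of the member with fewer words. Chains of links made a family, so that 2 members of a family need not share words. By this rule 1132 of the 1501 (75.4%) joined one of 45 families of 2 or more, while 369 stood alone. Families were numbered by size, and the 3 largest held 657 members (43.8%). No repeat annotation was used, so the families are named only by number. To show what separates them, 30 bases from the member detected in most libraries are given for 4 families (reference sequence, plus strand, RefSeq GRCm38), with words of the motif list that the family shares in capitals.
Family 1: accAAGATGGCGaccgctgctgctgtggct
Family 2: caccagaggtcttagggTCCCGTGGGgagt
Family 3: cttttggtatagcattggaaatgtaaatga
Family 5: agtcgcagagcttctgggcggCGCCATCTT

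The first stretch lies at chr9:80956185-80956214 and was found whole in 198 of the 233 members of family 1. In 163 members of the family the sequence matched itself at a shift, most often of 212 bp, over at least 60% of its bases, which marks a tandem repeat. The second stretch (chr4:61684947-61684976) was held by 204 of the 228 members of family 2, whose commonest repeat unit was 208 bp. Family 5, with 58 members and a unit of 206 bp, held its stretch (chr5:127875522-127875551) in 55. These 3 families were rich in G and C, with medians of 65.3%, 63.0% and 67.0%. Family 3 was of another kind. None of its 196 members was tandem, its median GC content was 44.3%, and the stretch shown (chr6:65298667-65298696) was present in 126. Family 10 consisted of 18 members, 17 of them tandem, most often with a unit of 6 bp.

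Copy number differed between families. For each region, the 31-base words were counted in the whole assembly on both strands, and the median was taken as the region's copy number. The median was 2188 copies in family 1, 2541 in family 2 and 5859 in family 3. Over all members it was 375, against 1 in other distal regions. A copy number above 10 (multicopy) was reached by 1079 members (71.9%) and by 254 other distal regions (4.49%), while 170 members (11.3%) were single-copy, as were 4795 other distal regions (84.9%). Members were wider, with a median of 601 bp against 410 bp, and farther from genes, with a median of 18464 bp against 6205 bp to the nearest start site. By centre, 903 members (60.2%) were intergenic, 565 (37.6%) intronic, 18 within the window of a termination site and 15 exonic. Of other distal regions 33.1% were intergenic and 15% exonic. With both genotypes' lists joined, members were denser on the X chromosome than on any autosome, at 0.83 per Mb against 0.369 to 0.714. Other distal regions were sparser there, at 0.702 against 1.63 to 2.88 per Mb. Of the 142 members on X, 37, 21, 15 and 21 had a peak in the Brg1 fl/+ libraries. In the Brg1 fl/fl libraries 95, 48, 50 and 45 did, so the density of members on X rests more on Brg1 fl/fl peaks. The density within each genotype was not tested.

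Short sequence words tied to transcription factors differed in frequency between the 2 kinds of distal region. Motifs were searched on both strands in the 300 bp around the summit of the best peak of each region, each word was counted whether or not it overlapped another, and a match is a description of letters only. The YY1 word AAGATGGCG occurred in 287 members (19.1%), in 1.03% of other distal regions and in 4.50% of all 16477 regions of these chromosomes. It was in 93.1% of family 1 and 100% of family 5, in capitals in their stretches above, and in none of family 2 or family 3. The word TCCCNNGGG, used for EBF1, occurred in 16.8% of members, 8.74% of other distal regions and 9.72% of all regions, and 224 of the 252 members that held it belonged to family 2. The words of 5 other factors were rarer among members than among other distal regions. ETS (GAGGAAG) was found in 4.26% against 16.1%, AP-1 (TGANTCA) in 2.80% against 12.5%, RUNX (TGTGGTT) in 3.00% against 9.95%, IRF (GAAANNGAA) in 2.00% against 9.08% and the CTCF core in 0.2% against 2.18%. All regions together held these 5 words in 13.4%, 6.42%, 5.54%, 6.36% and 1.42%. Single-copy members stood near the other distal regions, with ETS in 18.8%, AP-1 in 11.2% and RUNX in 12.9%, while multicopy members held them in 1.39%, 1.11% and 1.02%. The word for NF-kB (GGGANTTTC) was in 1.20% against 3.06%, and in 1.81% of all regions, and the E-box word CAGCTG was in 11.4% against 19.7%, and in 16.2% of all regions. OCT (ATGCAAAT) was found in 2.47% against 4.18%, and in 2.57% of all regions. Of annotated small RNA genes, 1 member overlapped a tRNA gene and 1 an rRNA gene, against 64 and 1 of the other distal regions.

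The first comparison asked whether members were detected as often in the 2 genotypes. A peak was present in 626, 384, 249 and 289 members in Brg1 fl/+ libraries 1 to 4, and in 867, 451, 586 and 557 in Brg1 fl/fl libraries 1 to 4. These are 41.7%, 25.6%, 16.6% and 19.3%, and 57.8%, 30.0%, 39.0% and 37.1%, of the members. The groups overlapped, because Brg1 fl/+ library 1 exceeded 3 of the Brg1 fl/fl libraries. The means were 25.8% ± 11.3 and 41.0% ± 11.8 (SD, n = 4 each), and the difference of 15.2 points did not pass the threshold (two-sided exact permutation test over 70 assignments, p = 0.143, smallest possible p = 0.0286). It was 33.7 points within libraries 3 and 4 of each genotype.

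Detection of members moved with the background of the libraries. The fragments expected at a position, taken as the lowest background that the fold and −log10 p of its peaks imply, were 1.30, 0.806, 0.541 and 0.735 for Brg1 fl/+ and 1.67, 0.783, 1.46 and 1.38 for Brg1 fl/fl libraries 1 to 4. Over the 8 libraries the number of members detected rose with it (Pearson's r = 0.938, exact permutation p = 0.000893, adjusted p = 0.00719, Spearman's rho = 0.905, exact permutation p = 0.00456, adjusted p = 0.0114, over 5 relations computed). Without the 2 libraries farthest from the median, Brg1 fl/+ library 3 and Brg1 fl/fl library 1, r was 0.896. At nearly equal backgrounds, Brg1 fl/+ libraries 2 and 4 detected 384 and 289 members and Brg1 fl/fl library 2 detected 451. At a higher background, Brg1 fl/+ library 1 detected 626 and Brg1 fl/fl library 4 detected 557. Detection of other distal regions had an r of 0.243 with background (exact permutation p = 0.612, adjusted p = 0.612) and the share of distal peaks that lay in members an r of 0.313 (exact permutation p = 0.432, adjusted p = 0.513). The part of background depth in the genotype difference was not tested, and each genotype holds too few libraries for a relation of its own.

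**Figure D1:**
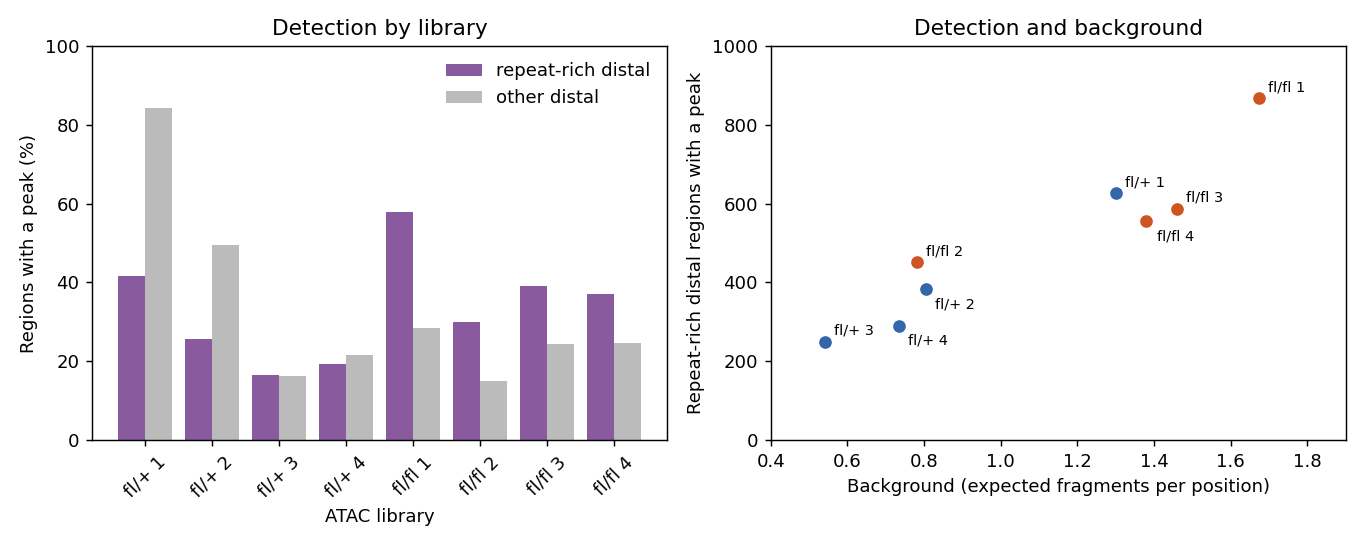
Left, the percent of 1501 repeat-rich distal regions (purple) and of 5651 other distal regions (grey) with a peak in each ATAC library. Right, the number of repeat-rich distal regions with a peak against the library's background in expected fragments per position (blue, Brg1 fl/+; orange, Brg1 fl/fl), where the 8 libraries run from 249 regions at 0.541 to 867 regions at 1.67.

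Relative to other distal regions, members were detected more often in every Brg1 fl/fl library. Other distal regions were detected in 84.2%, 49.6%, 16.4% and 21.6% of cases for Brg1 fl/+ and 28.4%, 15%, 24.4% and 24.6% for Brg1 fl/fl. Member minus other distal detection was therefore -42.5, -24.0, 0.18 and -2.37 points in Brg1 fl/+, and 29.3, 15.1, 14.7 and 12.5 points in Brg1 fl/fl. The groups did not overlap, and the difference of 35.1 points had the smallest p the test allows (two-sided exact permutation test, p = 0.0286). The regions were joined from the same lists that were compared: 46.4% of members had peaks in Brg1 fl/fl libraries alone and 62.1% of other distal regions in Brg1 fl/+ libraries alone, so that the detection percentages and their tests are not independent of how the regions arose. Members also took a larger share of the distal peaks, with 12.4%, 13.4%, 24.4% and 21.6% for Brg1 fl/+ and 35.8%, 36.8%, 31.2% and 29.9% for Brg1 fl/fl, a difference of 15.5 points (exact permutation test, p = 0.0286). At the nearly equal backgrounds named above this share was 13.4% and 21.6% in Brg1 fl/+ libraries 2 and 4 against 36.8% in Brg1 fl/fl library 2, and 12.4% against 29.9%. In each genotype, libraries 1 and 2 and libraries 3 and 4 were also taken as pairs, although the sample titles give replicate numbers only. Within the first pair the share differed by 23.1 points and within the second by 7.75 points, each with no overlap and with a smallest possible p of 0.333 (exact permutation test, p = 0.333 in both). With lists of equal length the difference in share was 12.1 points (exact permutation test, p = 0.114) and that in member minus other distal detection 28.0 points (exact permutation test, p = 0.0857). Brg1 fl/fl library 2, the shortest list and therefore kept whole, then had a share of 36.5% against 17.5% to 20.0% in the other 3, and without it the differences were 7.57 points (exact permutation test, p = 0.171) and 16.7 points (exact permutation test, p = 0.114). Brg1 fl/+ library 3 was kept nearly whole, with 6271 of 6372 peaks. Its share was 21.7%, against 5.88% to 10.3% in the other Brg1 fl/+ libraries, and a setting without both libraries was not run. With peaks of 250 bp or more only, a setting chosen after seeing the data, the share differed by 14.3 points (exact permutation test, p = 0.0286).

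Region by region, 927 members (61.8%) had a peak in more Brg1 fl/fl than Brg1 fl/+ libraries, against 16.6% of all regions of these chromosomes, and 329 (21.9%) in fewer, against 47.2%. Among other distal regions the shares were 14.1% and 71.1%. Detection was sparse: 715 members (47.6%) had a peak in a single library and 123 (8.19%) in all 8. Of the 715, Brg1 fl/fl library 1, which has the highest background, held 249.

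By copy number, single-copy and multicopy members had mean differences of opposite sign between genotypes, and neither passed the test. Single-copy members were detected in 75.3%, 38.2%, 10.6% and 18.2% of cases for Brg1 fl/+ and 23.5%, 14.7%, 13.5% and 15.3% for Brg1 fl/fl. Brg1 fl/+ libraries 1 and 2 stood above all others, libraries 3 and 4 lay among the Brg1 fl/fl values, and the difference of -18.8 points did not pass (exact permutation test, p = 0.314). It was -10.2 without Brg1 fl/+ library 1, -38.3 within libraries 1 and 2, 1 within libraries 3 and 4 and 13.8 with lists of equal length. Single-copy other distal regions gave 91.5%, 53.5%, 16% and 21.8%, and 23.1%, 12.3%, 21.2% and 21.6%, in the same order of libraries. Multicopy members gave 36.1%, 23.0%, 17.1% and 18.2% for Brg1 fl/+ and 64.1%, 32%, 42% and 40.0% for Brg1 fl/fl. Only Brg1 fl/fl library 2 lay below a Brg1 fl/+ library, and the difference of 21 points missed the threshold (exact permutation test, p = 0.0571), and it was 35.7 within libraries 3 and 4. The 254 multicopy other distal regions also had a higher mean in Brg1 fl/fl, with 49.5% ± 9.5 against 33.1% ± 11.5 (SD, n = 4 each). Among the members detected in a library, the multicopy share was 62.1%, 64.6%, 73.9% and 67.8% for Brg1 fl/+ and 79.8%, 76.5%, 77.3% and 77.6% for Brg1 fl/fl, with no overlap (difference 10.7 points, exact permutation test, p = 0.0286). With a masking threshold of 75% the difference was 4.83 points (exact permutation test, p = 0.0571).

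**Figure D2:**
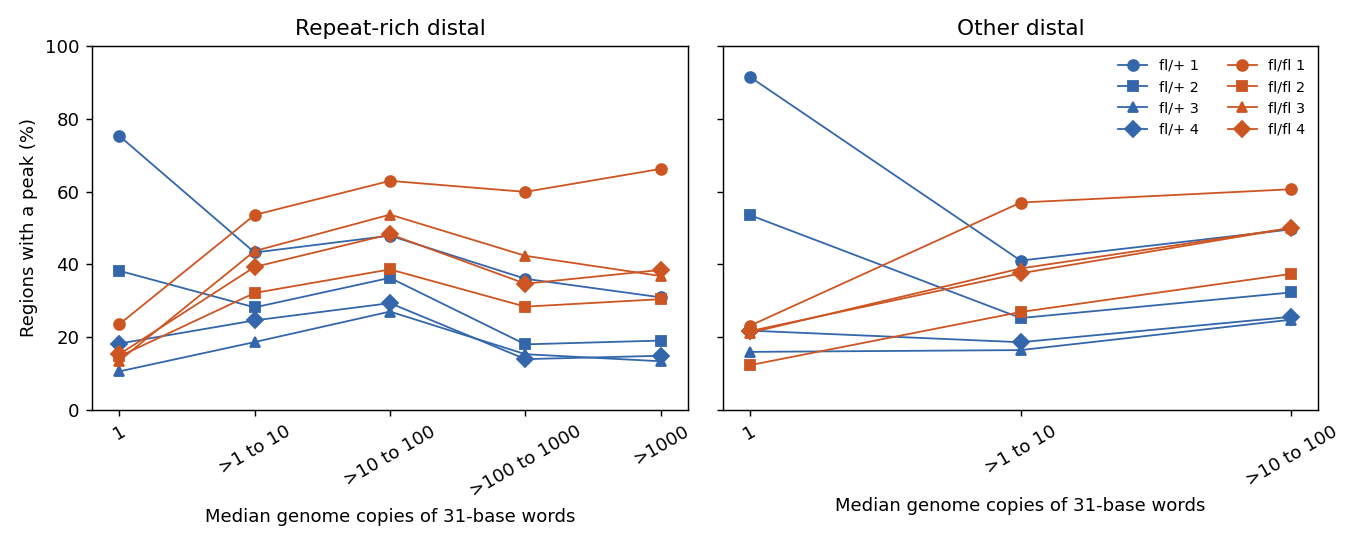
Percent of regions with a peak, by the median number of genome copies of a region's 31-base words, for repeat-rich distal regions (left) and other distal regions (right). Each line is 1 library (blue, Brg1 fl/+; orange, Brg1 fl/fl). At 1 copy Brg1 fl/+ libraries 1 and 2 lie highest on both sides, and above 10 copies the highest line on both sides is Brg1 fl/fl library 1.

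Families differed in how far the genotypes stood apart. Family 3, the non-tandem family with the lower GC content, was detected in 9.69%, 4.08%, 1.53% and 2.55% of its members for Brg1 fl/+ and 56.6%, 24.5%, 35.7% and 27.6% for Brg1 fl/fl. The lowest Brg1 fl/fl library, library 2, lay above the highest Brg1 fl/+ library, library 1. Their backgrounds were 0.783 and 1.30, and the part of background was not tested. The Brg1 fl/+ libraries had a peak in only 19, 8, 3 and 5 of the 196 members. Most members of the family therefore entered through Brg1 fl/fl peaks alone, so that this separation is not independent of how the regions arose. Means were 4.46% ± 3.64 and 36.1% ± 14.5 (SD, n = 4 each). Peaks of this family were weak. The difference of 31.6 points was 4.72 points with a −log10 q of at least 5, 6.12 points with lists of equal length and 0 with a −log10 q of at least 10. No test was made of single families.

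The GC-rich tandem families overlapped between genotypes. Family 1 was detected in 33.0%, 18%, 8.58% and 9.01% of its members for Brg1 fl/+ and 66.5%, 26.2%, 35.2% and 33.0% for Brg1 fl/fl. Family 2 gave 42.1%, 27.6%, 22.4% and 23.7%, and 69.3%, 33.8%, 39.0% and 44.3%. In family 5 the values were 41.4%, 15.5%, 19% and 17.2%, and 69.0%, 36.2%, 39.7% and 50.0%. In each of these families Brg1 fl/+ library 1 lay above the lowest Brg1 fl/fl library, and the other 3 Brg1 fl/+ libraries lay below it. Members holding the YY1 word were detected in 18.9% ± 11.7 for Brg1 fl/+ and 40.1% ± 17.2 for Brg1 fl/fl, and members without it in 27.4% ± 11.2 and 41.2% ± 10.7 (SD, n = 4 each).

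The remaining families of the 10 largest varied, and 3 of them had no higher mean in Brg1 fl/fl. Most members of family 10 were found in every library, with 17, 16, 15 and 16 of its 18 members for Brg1 fl/+ and 15, 15, 16 and 15 for Brg1 fl/fl. With peaks of 250 bp or more only, its difference turned from -4.17 to 5.56 points. Family 4 held 75 members, among them most of the strongest regions described below, and was detected in 26% ± 13.3 of its members for Brg1 fl/+ and 24% ± 14.4 for Brg1 fl/fl (SD, n = 4 each). Its members were loosely linked, and 30 bases from its best ranked member were found whole in 7 of the 75. Family 7, with a unit of 22 bp, had the same mean of 34.6% in both genotypes. Single libraries set these differences, which ran from -9.11 points without Brg1 fl/fl library 1 to 4 without Brg1 fl/+ library 1 in family 4, and from -5.64 without Brg1 fl/+ library 3 to 9.07 without Brg1 fl/+ library 1 in family 7. Family 6, non-tandem with 57 members, gave 14.5% ± 8.02 and 32% ± 15.8, a difference of 17.5 points that was 10.1 without Brg1 fl/fl library 1. Family 8, a repeat of short units of 5 or 10 bp, was detected in 63.0%, 40.7%, 33.3% and 37.0% for Brg1 fl/+ and 85.2%, 66.7%, 81.5% and 66.7% for Brg1 fl/fl. The difference in family 8 was 31.5 points, and 16.7 with a −log10 q of at least 5. All 22 members of family 9 lay on the X chromosome, with a unit of 31 bp, and 4, 3, 2 and 4 of them were detected for Brg1 fl/+ and 12, 5, 14 and 7 for Brg1 fl/fl. There the difference of 28.4 points was 7.95 with a −log10 q of at least 5, as that of 25.4 in family 5 was 9.48. In all, 37, 21, 15 and 21 of the 142 members on the X chromosome had a peak for Brg1 fl/+ and 95, 48, 50 and 45 for Brg1 fl/fl. They made up 6.17% ± 0.771 of the members detected for Brg1 fl/+ and 9.55% ± 1.46 for Brg1 fl/fl. Outside the 3 largest families, the other 844 members were detected in 32.3% ± 13.6 and 40.8% ± 8.76 (SD, n = 4 each).

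**Figure D3:**
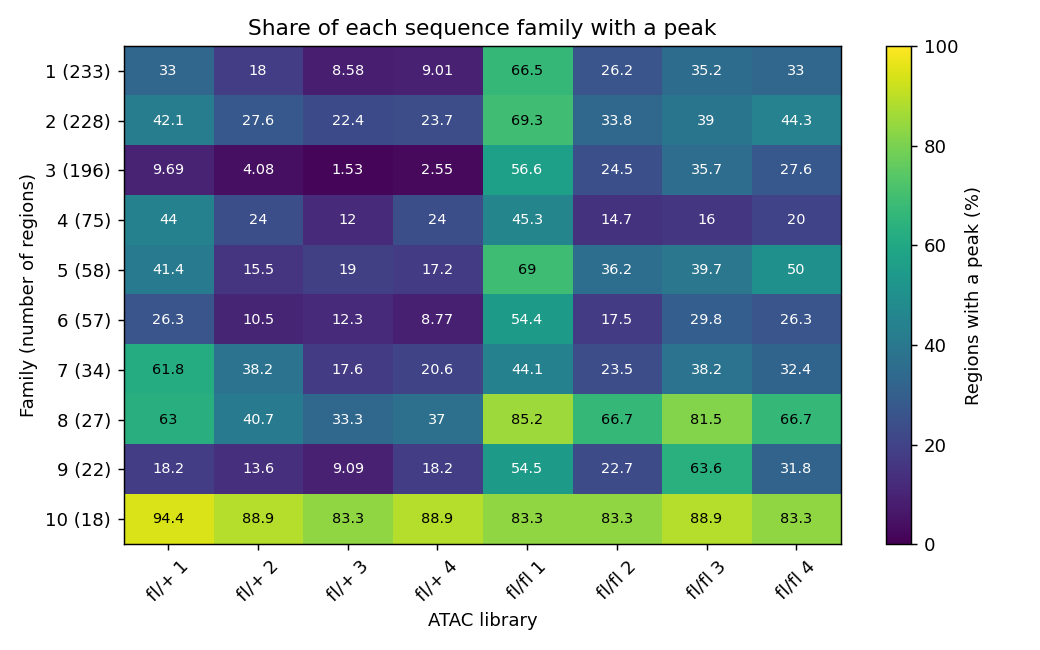
Percent of the regions of each of the 10 largest sequence families with a peak in each library. Rows are families with their number of regions and columns are libraries; family 3 runs from 1.53% to 9.69% in the Brg1 fl/+ columns and from 24.5% to 56.6% in the Brg1 fl/fl columns, and family 10 stays between 83.3% and 94.4%.

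A peak in all libraries of one genotype and none of the other was rare. It was found in all 4 Brg1 fl/fl and no Brg1 fl/+ library in 17 members (1.13%), against 0.17% of all regions, and in the opposite direction in 5 members (0.333%), against 0.407%. Of the 17, 14 were multicopy and none was single-copy, 4 belonged to family 3 and 3 to family 1, and 11 were intergenic and 6 intronic. The best ranked were weak to moderate peaks. At chr13:110744020-110744488, an intergenic member of family 10 of which 85.9% is masked, folds over the local background were 6.36, 5.61, 6.10 and 6.72 in Brg1 fl/fl libraries 1 to 4. At chr7:108026651-108027852, a tandem array of family 1 located 5089 bp from the start of the olfactory receptor gene Olfr478, they were 4.86, 6.17, 5.28 and 5.46, with 12, 10, 12 and 12 fragments at the summit. The member of family 3 at chr10:52494676-52497949, 3274 bp wide and with 9234 copies of its median word, had folds of 4.86, 5.05, 4.47 and 5.88. Another, at chr6:89730428-89732172, lay 9466 bp from the pheromone receptor gene Vmn1r41 and had folds of 4.2 to 5.28. Tandem arrays with units of 33, 32 and 28 bp in introns, at chr6:145784152-145786389, chr13:67840836-67842305 and chr12:116249103-116251676, and 1 with a unit of 12 bp near Nmi, at chr2:51946571-51947569, complete the 8 best ranked.

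Among the 5 members found only in Brg1 fl/+, 2 had high folds but were narrower than any peak listed in the other genotype. The shortest peak was 195 to 204 bp in the Brg1 fl/+ lists and 231 to 243 bp in the Brg1 fl/fl lists. The member at chr12:3109875-3110088 is 214 bp wide and had folds of 39.9 to 43.2, and the member of family 10 at chr8:83756773-83756985, 213 bp wide, had folds of 19.4 to 25.2. Both are narrower than any peak of a Brg1 fl/fl list, so their absence there cannot be told apart from the longer shortest peak of those lists. With peaks of 250 bp or more only, 3 members remained in this class and 18 in the opposite one.

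The other 3 were wider. The single-copy member chr4:32588109-32588795, intergenic, 687 bp wide and 54.9% masked, lies 13521 bp from a start site of Bach2, which encodes a repressor of plasma cell differentiation. It had folds of 9.24, 5.87, 6.43 and 7.11 in Brg1 fl/+ libraries 1 to 4, with 34, 12, 9 and 15 fragments at the summit. The paper names Bach2 among the Brg1 target genes with higher expression in Brg1-deficient B cells, and a link of this region to Bach2 expression was not tested. Because this region is the single-copy member of its class, the 250 bases around its summit (chr4:32588313-32588562, plus strand) are shown. None of the searched words occurs in them.
Bach2 region: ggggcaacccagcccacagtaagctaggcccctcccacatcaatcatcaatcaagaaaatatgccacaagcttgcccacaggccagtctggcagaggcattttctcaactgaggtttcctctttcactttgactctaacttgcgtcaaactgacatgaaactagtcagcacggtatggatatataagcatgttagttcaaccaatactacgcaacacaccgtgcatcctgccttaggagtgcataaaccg

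The remaining 2, at chr14:118982245-118982803 and chr8:10830992-10831429, had folds of 5.74 to 7.67 and 4.26 to 8.62 and a copy number of 3 each.

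Of 35 genes of B cell identity and activation, 6 had a member within 50 kb of a start site, 1 each. Besides the region near Bach2, single-copy members among them were an intergenic member 42347 bp from a start of Ebf1, a regulator of early B cell fate, with 4930597A21Rik as the nearest start, the member chr11:44574748-44575191, in 3 Brg1 fl/+ libraries and 1 Brg1 fl/fl library with folds of 8.45 to 11.4, and a member near Cxcr4, a chemokine receptor gene, in 1 Brg1 fl/+ library. A member of family 3 in an intron 17138 bp from Cd79a and a member of family 4 near Xbp1 were each found in 1 Brg1 fl/fl library. The member near Ebf1 is shown as the one with motif words (chr11:44574831-44575080 of chr11:44574748-44575191, plus strand), with AP-1 and OCT (ATGCAAAT) words in capitals.
Ebf1 region: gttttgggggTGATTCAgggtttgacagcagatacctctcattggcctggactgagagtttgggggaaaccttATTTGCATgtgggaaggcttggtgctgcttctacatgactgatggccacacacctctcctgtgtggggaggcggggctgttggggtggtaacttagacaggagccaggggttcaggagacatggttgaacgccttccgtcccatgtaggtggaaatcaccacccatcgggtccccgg

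Member peaks were weaker in rank and wider than other distal peaks in every library. The median percentile rank by q within a list (100 is the strongest) was 8.58 to 14.1 for members and 27.2 to 32 for other distal peaks. The difference averaged -17.5 and was below 0 in 8 of 8 libraries (exact permutation test by sign flips, p = 0.00781, the smallest it can give). It was not kept among strong peaks, where it was 2.40 with a −log10 q of at least 10 (exact permutation test, p = 0.797). Median widths were 508 to 594 bp for Brg1 fl/+ and 647 to 726 bp for Brg1 fl/fl for members, and 318 to 388 bp and 398 to 441 bp for other distal peaks. The mean difference was 232 bp, above 0 in 8 of 8 libraries (exact permutation test by sign flips, p = 0.00781). It was 769.8 bp and 786.9 bp with a −log10 q of at least 5 and 10, and 647.3 bp with lists of equal length, where Brg1 fl/+ libraries 1 and 2 had -29.5 and -7 bp. The widths of both kinds of region were larger in every Brg1 fl/fl list, as was the shortest peak, and the part of the latter was not tested.

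Among the members found in all 8 libraries, 5 of the 6 best ranked by q belonged to family 4. They were poor in G and C, with 34.6% to 36.8%, whereas family 4 as a whole had a median of 46.4%. Copy numbers of these 5 were 1 to 14, counted in the assembly, which cannot show copies missing from it. The part of such copies in their folds was not tested. A region of 38153 bp at chr9:3000035-3038187, at the start of the assembled chromosome, had folds of 14.9 to 17.3. The member at chr9:35305222-35305591 had folds of 35 to 39.1, that at chr14:19415725-19419410 had 20.4 to 23.0, and that at chr2:98666253-98667320 had 19.5 to 21.8. A neighbour of the last, at chr2:98662241-98663859, had folds of 3.12 to 4.18, although its rank by q was above 99.7 in every library. The sixth, in family 8 at chr17:13550703-13553152, had 20.5 to 21.8 for Brg1 fl/+ and 17.6 to 18.7 for Brg1 fl/fl.

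Peak strength could be compared where a region had a peak in all 8 libraries, which held for 4579 regions, 123 of them members. The deposited fold already holds a pseudocount of 1 in both summit and background, and no other was added. It was taken on the log2 scale, and each library was centred on its median over the 4579 regions. To all of them limma was fitted with Benjamini-Hochberg adjustment. Relative to that median, 35 members (28.5%) were higher in Brg1 fl/fl at an adjusted p below 0.05, against 3.41% of the 4579 regions. No member was lower by limma, against 2.23% of all regions, with 1 at an unadjusted p below 0.05, and 3 were lower with quantile normalization, which left 23 higher. The count of 35 was 16 to 53 when 1 library was left out, with 53 without Brg1 fl/+ library 3, and it was 79 within libraries 1 and 2 and 5 within libraries 3 and 4 of each genotype. The median log2 difference was 0.34 for members, 0.06 for the 475 other distal regions and 0.03 for all regions, and 116 of the 123 members were above 0. Calls were made for 28 of 90 multicopy members tested (31.1%) and for 2 of 10 single-copy members (20%). Multicopy other distal regions were also called higher in 5 of 29 (17.2%) and lower in 0, against 4.63% higher and 2.74% lower among all 475 other distal regions. Family 10 had 7 of 14 tested members called, family 2 had 5 of 23, family 8 had 3 of 7, family 1 had 2 of 3 and family 5 had 2 of 4. No member of family 3 had a peak in all 8 libraries.

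**Figure D4:**
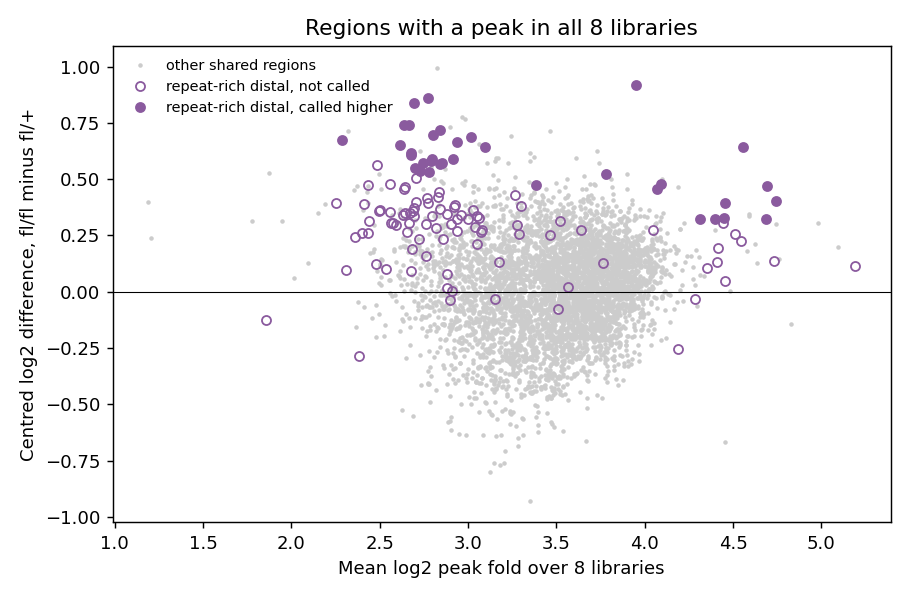
Centred log2 difference of peak fold (Brg1 fl/fl minus Brg1 fl/+) against the mean log2 fold for the 4579 regions with a peak in all 8 libraries. Grey dots are other regions, open purple circles members not called and filled purple circles the 35 members called higher; 116 of 123 members lie above 0.

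This difference is relative to the other regions. The median log2 fold of the 123 members was 2.96, 2.82, 2.72 and 2.79 for Brg1 fl/+ and 3.08, 2.87, 2.96 and 3.06 for Brg1 fl/fl, a difference of 0.17 that missed the threshold (exact permutation test, p = 0.0571). For the other 4456 regions it was 3.78, 3.74, 3.39 and 3.59, and 3.49, 3.22, 3.48 and 3.49, a difference of -0.20 (exact permutation test, p = 0.143). Summit fragments over the library's background, a scale without pseudocount, could be recovered in all libraries for 110 members. Those left out include strong ones, such as chr13:119596591-119602994 and the shared members of family 4, so that the 2 scales do not cover the same members. The part of the pseudocount in how the scales differ was not tested. For the 110 members the values were as follows. Their median log2 value was 4.17 ± 0.140 for Brg1 fl/+ and 4.21 ± 0.160 for Brg1 fl/fl (SD, n = 4 each), and the difference of 0.04 was within the spread (exact permutation test, p = 0.743). The other 4440 regions went from 5.74 ± 0.237 to 4.86 ± 0.0678, a difference of -0.88 (exact permutation test, p = 0.0286). Without centring, 3 members were called higher and 2 lower on the fold, and 12 higher and 8 lower on the summit fragments, where the median of all 4550 regions moved by -0.81.

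**Figure D5:**
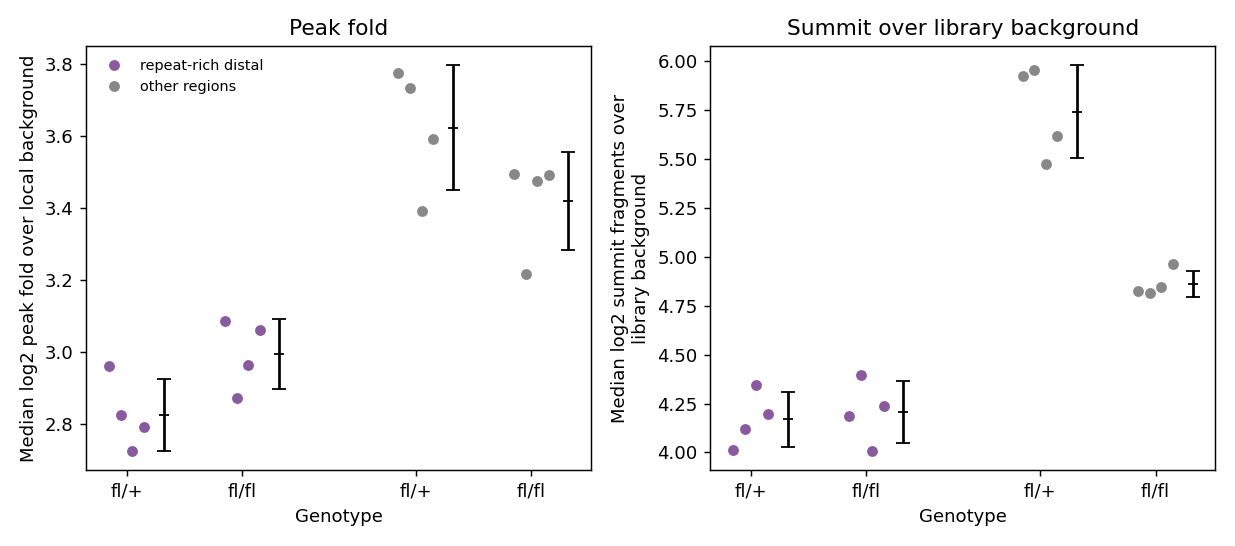
Medians per library over the regions with a peak in all 8 libraries, for peak fold over the local background (left, log2) and for summit fragments over the library's background (right, log2). Each point is 1 library, and the dash with bars beside 4 points is their mean ± SD; repeat-rich distal regions (purple) had means of 4.17 and 4.21 on the right, and other regions (grey) had 5.74 for Brg1 fl/+ and 4.86 for Brg1 fl/fl.

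By limma p, the first member was a tandem array with a unit of 31 bp, at chr13:119596591-119602994, in an intron 6857 bp from a start site of Tmem267. Its folds were 13.8, 11.7, 10.8 and 12.2 for Brg1 fl/+ and 20.2, 18.7, 20.1 and 20.1 for Brg1 fl/fl, with no overlap (log2 difference 0.92, SE 0.0951, limma adjusted p = 3.38e-08). A member of family 10 of 247 bp at chr16:98107519-98107765 had the next smallest p. It had folds of 21.9, 22.4, 18.6 and 18.4, and 28.1, 24.2, 29.5 and 28.2 (log2 difference 0.64, SE 0.0901, limma adjusted p = 3.38e-05). The third by p, an array with a unit of 36 bp in an intron with Fhit as the nearest start, at chr14:11046480-11049774, had folds of 4.04 to 6.96 and of 7.85 to 9.40 (log2 difference 0.86, SE 0.165, limma adjusted p = 0.00277). Arrays at chr17:13654615-13655282 and chr9:124256355-124257985 followed with 0.52 and 0.48 (limma adjusted p = 0.00534 and 0.00547). Without centring, the calls of the last 3 were lost (limma adjusted p = 0.0531, 0.0921 and 0.150), while those of the first 2 were kept (limma adjusted p = 0.00144 and 0.0081). Below 0, the member with the smallest p was another of family 10, chr14:69162000-69162446, whose folds of 20.4 to 22.3 for Brg1 fl/+ and 14.5 to 16.3 for Brg1 fl/fl did not overlap (log2 difference -0.25, SE 0.0974, limma adjusted p = 0.112). With quantile normalization it was called lower (log2 difference -0.36, limma adjusted p = 0.00774). Without centring it was also lower (log2 difference -0.45, limma adjusted p = 0.0081). The next, chr12:59035597-59038518, a tandem array with a unit of 95 bp, had a log2 difference of -0.29 (limma adjusted p = 0.298), and chr2:98662241-98663859 had -0.13 (limma adjusted p = 0.626). Both were also called lower with quantile normalization (limma adjusted p = 0.0309 and 0.00125). The member of family 10 at chr3:149052488-149052876 had -0.08 and the array chr17:13550703-13553152 had -0.03 (limma adjusted p = 0.773 and 0.871), and both turned above 0 under some alternatives.

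Beside the threshold on masking, the member just above it, chr10:82899871-82900151, is 50.2% masked and had a peak in 1 Brg1 fl/+ library, and the distal region just below it, chr2:91984629-91984848, is 50% masked and had a peak in 1 Brg1 fl/+ library.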

How the data were processed

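Library by library, the authors mapped ATAC-seq reads with Bowtie2 (mm10) and ran MACS2. Versions, options and the treatment of multi-mapping and duplicate reads are not given in the sources used here. The deposited lists give each peak a fold, which is a ratio of its summit to local background, with −log10 p, −log10 q and a score, which was not used. RNA-seq was not analysed here. The lists held 6271 to 14614 peaks. Depth was recovered from fold and −log10 p, within 0.002 of the deposited −log10 p, for 99.5% to 99.9% of peaks, and the lowest background of a library was taken as its own. Soft-masking is that of RefSeq GRCm38.p6, and start sites are those of GENCODE.

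A region counted as detected when a peak of the list lay in it. Genotypes were compared by two-sided exact permutation tests over libraries and by limma 3.58.1 (trend, Benjamini-Hochberg) in R 4.3.3, with Python 3.11.15. The threshold was 0.05. The deviations of same-numbered libraries of the genotypes were not correlated (correlations of -0.092 to 0.0115), so the replicate number was not a block. Library 1 of each genotype did, however, have the most peaks, the highest background and the most members detected of its genotype. The permutation tests, word and copy counting, fragment recovery, tandem period, peak joining and limma were tested on simulated or made-up data, and the other steps were not. Members, families, gene and motif lists and tests were chosen with earlier results of these data known, so the p-values are not independent evidence. Named regions were the best ranked by q of those in all libraries of 1 genotype alone (up to 8 a direction) or in all 8 (6), the 5 smallest limma p in each direction, 1 region from each of the 5 largest families, those beside the masking threshold and those within 50 kb of a listed gene. Families 7 to 10 and the regions with further values were chosen after their values were seen. Some listed genes and 1 sequence are not reported here.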

Additional observations from a re-analysis of the deposited data

Results flagged for a closer look

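Dixon's test was applied to 86 groups of 4 libraries, where chance sets about 1 group in 20 apart, and in 6 of them 1 library lay far from the others. Brg1 fl/fl library 1 had a member minus other distal detection of 29.3 points, while the rest of its genotype had 12.5 to 15.1, and held 95 detected members on the X chromosome, against 45 to 50. It has the highest background of the 8 libraries, and the part of that background was not tested. Brg1 fl/fl library 2, with the lowest background of its genotype, had a median of 9 fragments at member summits, against 12 in each of the others, and the lowest fold at chr13:119596591-119602994, 18.7 against 20.1 to 20.2. Brg1 fl/+ library 1 detected 41.4% of family 5, against 15.5% to 19%. Brg1 fl/fl library 3 detected 88.9% of family 10 against 83.3% in each of the others, a difference of 1 region.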

How the results depend on the processing

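Member detection and multicopy member detection, which did not pass, stayed above 0 under every alternative run, at 11.7 to 33.7 and 17.8 to 35.7 points over leaving out 1 library and the pairs of libraries alone, and several of these settings cannot reach 0.05. Alternatives with chromosome X, regions over 5000 bp or peaks under 250 bp left out, with 1 pair of libraries alone, with summit fragments or without centring were chosen after seeing the data. With the replicate block (smallest possible exact permutation p = 0.125) member minus other distal detection, the member share of distal peaks and the multicopy share of detected members differed by 35.1, 15.5 and 10.7 points, each with p = 0.125 in the exact permutation test, and limma called 31 members higher. The deviations of same-numbered libraries were not correlated, and 0 of 4 Brg1 fl/+ libraries correlated best with their number, although library 1 detected the most members in each genotype.

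With lists of equal length these 3 differences were 28.0, 12.1 and 14.4 points, and the first 2 were 16.7 and 7.57 without Brg1 fl/fl library 2. With libraries 1 and 2, and 3 and 4, joined they were 50.4, 15.5 and 12.2, within libraries 1 and 2 they were 59.0, 23.1 and 14.5, and within libraries 3 and 4 they were 19.1, 7.75 and 5.01, where 2 against 2 allows no p below 0.333. With over 75% masking the multicopy share differed by 4.83 points. Leaving out 1 library gave 31.8 to 41.1, 13.5 to 17.6 and 8.66 to 12.95 points, and the test lost its call without any 1 Brg1 fl/fl library for detection and the multicopy share, and without Brg1 fl/fl library 2 for the share of distal peaks. The single-copy difference turned to 13.8 with lists of equal length and to 1 within libraries 3 and 4, and was -27.2 to -10.2 with 1 library left out. The rank difference was 2.40 with a −log10 q of at least 10, -2.10 with equal lists, -17.6 with joined libraries, -16.6 within libraries 1 and 2 and -18.6 within 3 and 4. The width difference was 230.9, 202.8 and 245.0 bp in the last 3, where too few values remain to pass.

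The members numbered 656 and 264 with a −log10 q of at least 5 and 10, 567 with equal lists, 786 when found in at least 2 libraries and 933 in libraries 3 and 4. Those in all Brg1 fl/+ and no Brg1 fl/fl library numbered 2 with a −log10 q of at least 10, with equal lists and with over 75% masking, 3 with peaks of 250 bp or more, 22 with joined libraries, 62 in libraries 1 and 2, and 4 to 11 with 1 library left out (11 without Brg1 fl/+ library 3, 8 without library 4). In the opposite class there were 2 and 1 at the thresholds of 5 and 10, 6 with equal lists, 169 with joined libraries, 84 in libraries 1 and 2, 114 in libraries 3 and 4, and 18 to 36 with 1 left out (30 without Brg1 fl/+ library 1, 36, 29 and 31 without Brg1 fl/fl libraries 2, 3 and 4).

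Shared members called higher by limma numbered 14 with peaks covering 50% of the region, 12 with equal lists, 15 with ranks by fold, 23 with quantile normalization, 3 without centring, 92 with summit fragments and 12 with these uncentred, 79 and 5 in the first and second pair of libraries, 17 with joined libraries, 16 and 14 at thresholds of 5 and 10, and 16 to 53 with 1 library left out. Each library changed that count by over 1.5 times, to 17, 16, 53 and 22 without Brg1 fl/+ libraries 1 to 4 and to 17, 21, 22 and 22 without Brg1 fl/fl libraries 1 to 4. Members called lower numbered 1 with the 50% cover, 1 at the threshold of 10, 3 with quantile normalization, 2 without centring and 8 with uncentred summit fragments. The log2 difference turned to 0.036 at chr2:98662241-98663859 in libraries 1 and 2. At chr3:149052488-149052876 it was 0.11 with summit fragments and -0.21 to 0.039 with 1 library left out. At chr17:13550703-13553152 it was 0.15 in libraries 1 and 2, 0.026 with joined libraries and -0.077 to 0.055 with 1 left out. The cause of these changes was not tested. Member summits held a median of 8 to 12 fragments, and the part of depth was not tested.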
